A study of Bos taurus with 60 samples.

Results

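The 100 most abundant genes of the heifer endometrium were taken as the rows of the deposited count table with the largest sums over all 60 heifers, that is 100 of 24616 genes listed and of 20669 with at least 1 count. All 100 passed the expression filter, which 14363 genes passed in all. Together they held 22.6% of all counts. The samples were endometrium of crossbred beef heifers, all synchronised and inseminated, and dissected from the uterine horn on the side of the corpus luteum at slaughter. Control heifers received a rumen-protected palmitic acid supplement and n-3 PUFA heifers a partially rumen-protected fish oil supplement (n-3 polyunsaturated fatty acids), both from 30 days before insemination. For the 16 days after it each heifer was kept on a high or moved to a low plane of nutrition, with the lipid supplement continued at an unchanged level on the low plane, which gave the groups CON_High (n = 14), CON_Low (n = 14), PUFA_High (n = 17) and PUFA_Low (n = 15). Every group was therefore fed a fat supplement, and every group includes pregnant and non-pregnant heifers, whose status was not used here. The group sizes stated in the study's methods, results and figure legends match the sample labels, whereas in the design text and in the pregnancy numbers of the same methods the n-3 PUFA group with more heifers is the low plane one. Groups follow the labels throughout, and each direction between the n-3 PUFA planes rests on them.

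The endometrium is the lining of the uterus, built of luminal and glandular epithelium, stroma, vessels and immune cells, and its secretions feed the conceptus before attachment. In most tissues a short list of genes takes a large share of all sequenced reads, typically genes for ribosomal proteins, the cytoskeleton, the extracellular matrix, secreted proteins and the mitochondrial respiratory chain. Because reads are counted as parts of a library of fixed size, a larger share for some genes leaves a smaller share for the rest. The count table carries Ensembl identifiers, and 0 of the 37063 bovine RefSeq genes available for naming (assembly ARS-UCD2.0) paired with one, so members are described here by their rank in total counts and no roles, cell type markers or sequences are given. Endometrial markers could not be checked for the same reason. Shares are not corrected for gene length, so ranks order reads and not RNA molecules.

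The list was led by a single gene. ENSBTAG00000043561, of rank 1, held 2.58% of all counts, and ENSBTAG00000043560, of rank 2, held 0.610%. The gene of rank 100, ENSBTAG00000010347, had 685946 counts over the 60 heifers (0.0989%) and the gene of rank 101 had 678032 (0.0977%), so the limit falls where neighbouring genes are nearly equal. On either side of the limit the log2 fold change between PUFA_Low and PUFA_High was 1.01 at rank 98, 0.67 at rank 99, -0.41 at rank 100, 0.92 at rank 101 and -0.14 at rank 102. The sums include the PUFA_Low heifers, which favours genes that are high in that group. When the 100 genes were chosen on the 45 heifers of the other groups, 95 were the same. These included 39 of the 44 genes called higher in PUFA_Low than in PUFA_High below. When chosen on the control heifers alone, 96 were the same, with 40 of the 44. In both cases every member lost was one of the 44, so the count of 44 owes a part to this choice.

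The summed share of the 100 genes was higher in PUFA_Low than in the other groups. It ran from 21.4% to 30.6% of the library total in PUFA_Low (median 24.9%), from 17.9% to 24.7% in PUFA_High (median 20.9%), from 19.3% to 25.9% in CON_Low (median 21.5%) and from 18.8% to 28.2% in CON_High (median 20.9%). The groups overlapped: 8 of 15 PUFA_Low heifers lay above the highest PUFA_High heifer, 7 above the highest CON_Low heifer and 5 above the highest CON_High heifer. The mean was 4.92 percentage points higher in PUFA_Low than in PUFA_High and 3.95 points higher than in CON_Low, whereas the difference from CON_High was -0.177 points for CON_Low and -1.15 points for PUFA_High. Since the genes were chosen with earlier results of these data known, no test is given for this sum. Library codes carry 6 prefixes whose meaning is not stated. Within each prefix PUFA_Low stood above PUFA_High, by 6.94, 2.62, 7.76, 4.64, 3.96 and 3.54 points. Within the same prefixes CON_Low minus CON_High ran from -3.19 to 2.77 points and PUFA_High minus CON_High from -3.96 to 1.12 points, so neither kept its sign. Without CON_High replicate 11 these differences were 0.301 and -0.667 points over all prefixes, and without CON_High replicates 8, 9 and 11, which held the largest shares of that group, 1.21 and 0.240 points.

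**Figure D1:**
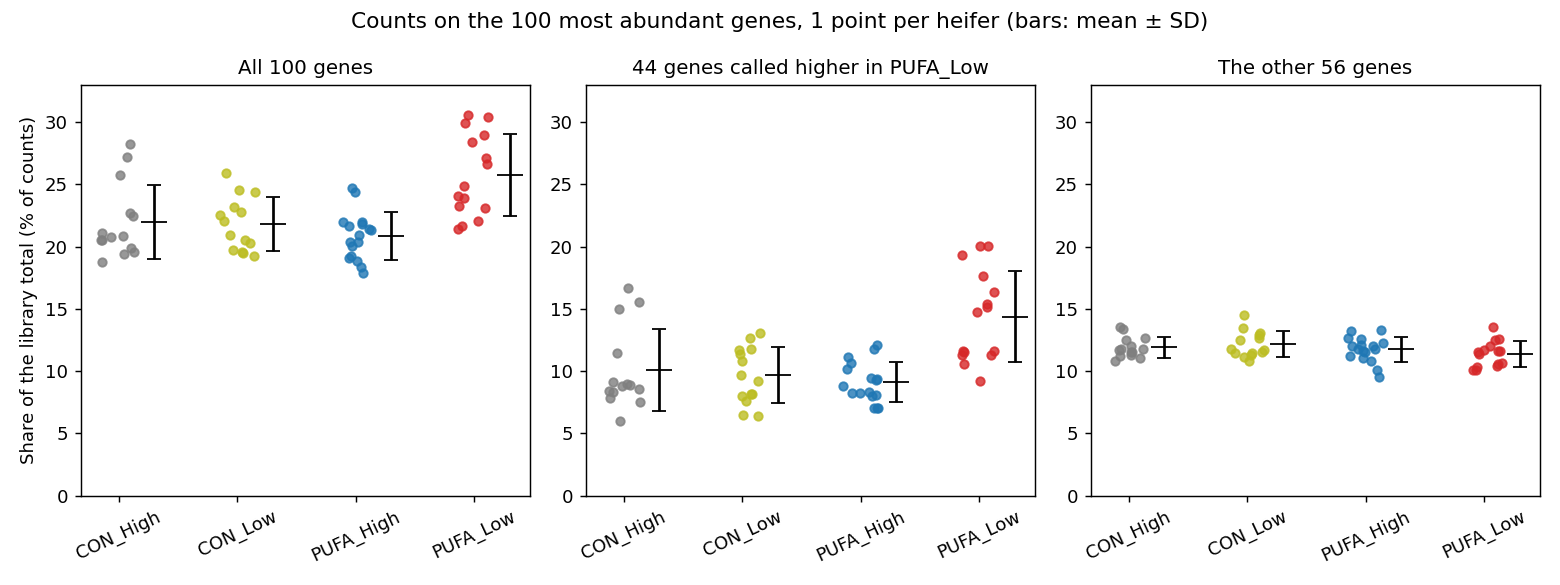
Share of the library total (% of counts) held by the 100 most abundant genes, by the 44 of them called higher in PUFA_Low than in PUFA_High and by the other 56, with 1 point per heifer and bars for mean ± SD in 4 dietary groups. PUFA_Low stands higher for the 100 genes (25.8% ± 3.31 against 20.8% ± 1.91 in PUFA_High) and for the 44, which were chosen on this difference, while the other 56 lie between 9.56% and 14.5% in every group.

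Which genes carried the difference was examined gene by gene in the fit over all 14363 genes. A gene was called differentially expressed (DEG) at a Benjamini-Hochberg adjusted p-value under 0.10 in edgeR's quasi-likelihood test and a fold change above 1.5. Between PUFA_Low and PUFA_High, 44 of the 100 genes were called higher, against 2.44% of all genes tested, and 0 were called lower, against 3.17%. With no limit on the fold change 52 passed the test as higher, against 15.0% of all genes, and 4 as lower, against 16.3%. The median log2 fold change was 0.35 over the 100 genes and -0.03 over all genes. Apart from the 44, 11 genes lay between 0.25 and the fold limit, 40 lay within 0.25 of 0 and 5 lay below -0.25, and the whole range was -0.41 to 1.06. The median was 0.84 among the 44, which were chosen on this difference, and 0.07 among the other 56.

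Genes called higher stood at all levels of the list. Of the 9 genes of ranks 2 to 10 there were 2 called higher, of ranks 11 to 25 there were 7 of 15, of ranks 26 to 50 there were 10 of 25, of ranks 51 to 75 there were 13 of 25 and of ranks 76 to 100 there were 11 of 25. The largest log2 fold changes belonged to the genes of rank 36 (1.06), rank 91 (1.06) and rank 64 (1.05).

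**Figure D2:**
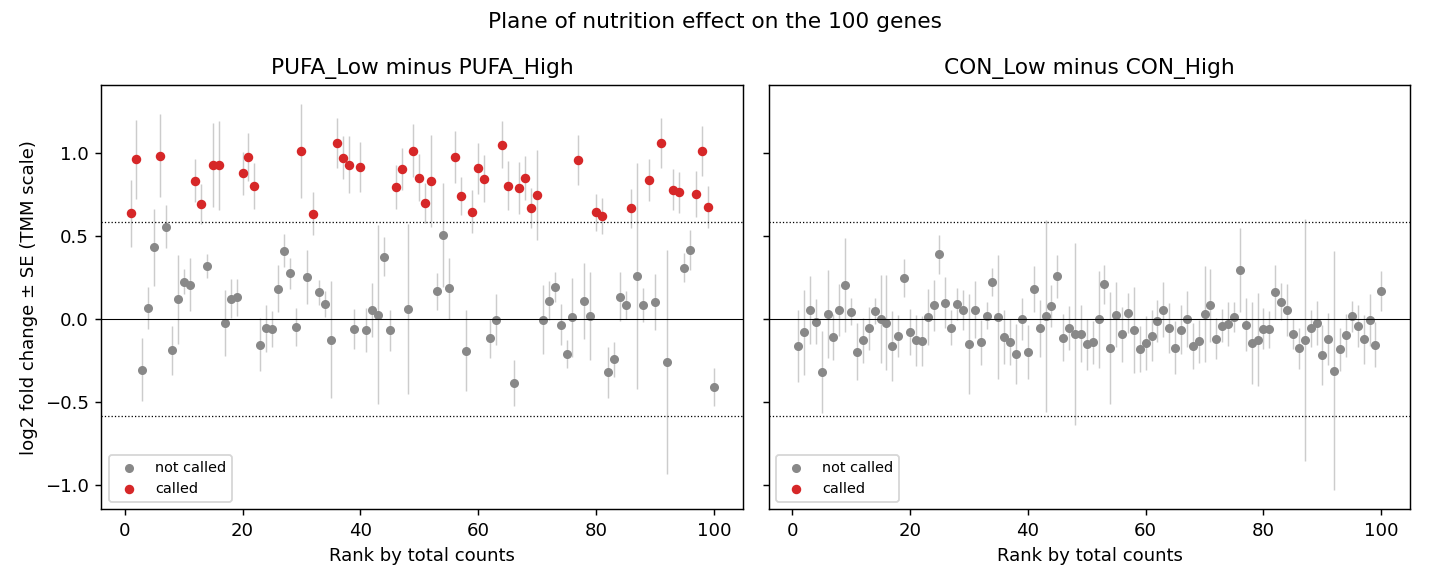
log2 fold change ± SE of each of the 100 genes against its rank in total counts, for PUFA_Low minus PUFA_High and for CON_Low minus CON_High, with dotted lines at the fold limit of 1.5 in either direction and genes called in red. In n-3 PUFA heifers 44 genes sit above the upper line at all ranks, and in control heifers every gene lies between -0.32 and 0.39.

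ENSBTAG00000043561 took between 2.19% and 5.02% of the library total in PUFA_Low (median 3.29%) and between 1.32% and 4.10% in PUFA_High (median 2.23%). In CON_Low it ran from 1.27% to 4.11% (median 2.05%) and in CON_High from 0.971% to 4.60% (median 1.96%). The groups overlapped widely, with 4 of 15 PUFA_Low heifers above the highest PUFA_High heifer. The log2 fold change between the n-3 PUFA planes was 0.64 (SE 0.20, edgeR adjusted p = 0.0170), and that between PUFA_Low and CON_Low was 0.74 (adjusted p = 0.0210). It lies close to the fold limit: it was 0.50 with scaling by total counts alone, and 0.58 without PUFA_Low replicate 1 or without replicate 6, all 3 under the limit.

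ENSBTAG00000043560 ranged from 0.370% to 1.55% in PUFA_Low (median 0.879%), from 0.286% to 0.796% in PUFA_High (median 0.486%), from 0.206% to 0.992% in CON_Low (median 0.499%) and from 0.144% to 1.22% in CON_High (median 0.458%). Here 8 of 15 PUFA_Low heifers exceeded every PUFA_High heifer. Its log2 fold change between the n-3 PUFA planes was 0.96 (SE 0.24, edgeR adjusted p = 0.00293).

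The cleanest separation between the n-3 PUFA planes was found lower in the list. For the gene of rank 37, 14 of 15 PUFA_Low heifers exceeded every PUFA_High heifer. Its share was 0.170% to 0.416% in PUFA_Low (median 0.269%), 0.108% to 0.194% in PUFA_High (median 0.157%), 0.114% to 0.236% in CON_Low (median 0.163%) and 0.138% to 0.276% in CON_High (median 0.165%), with a log2 fold change of 0.97 (SE 0.13, edgeR adjusted p = 6.27e-07) between the n-3 PUFA planes. For the genes of ranks 36, 47, 57, 64 and 91 the number was 13 of 15. The gene of rank 1 therefore moved the most reads while separating the heifers less well than these.

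Only 4 members passed the test as lower in PUFA_Low, against 16.3% of all genes, and none of them was past the fold limit. This number was 8 with scaling by total counts alone, against 30.0% of all genes. It was 2 without the expression filter (10.7%) and 2 with the replicate number as a block (11.5%). ENSBTAG00000033221, of rank 66, ranged from 0.0581% to 0.188% in PUFA_Low (median 0.0969%), from 0.0853% to 0.213% in PUFA_High (median 0.151%), from 0.0729% to 0.255% in CON_Low (median 0.160%) and from 0.0808% to 0.206% in CON_High (median 0.178%). Its log2 fold change was -0.38 (SE 0.14, edgeR adjusted p = 0.0345) between the n-3 PUFA planes and -0.49 (adjusted p = 0.0226) between PUFA_Low and CON_Low. ENSBTAG00000010347 ranged from 0.0558% to 0.147% in PUFA_Low (median 0.0741%), from 0.0639% to 0.203% in PUFA_High (median 0.107%), from 0.0660% to 0.134% in CON_Low (median 0.103%) and from 0.0555% to 0.127% in CON_High (median 0.0935%). Its log2 fold change was -0.41 (SE 0.11, adjusted p = 0.00641) between the n-3 PUFA planes. In both genes the groups overlapped, with 4 of 15 PUFA_Low heifers below the lowest PUFA_High heifer. The others were the genes of ranks 75 (-0.21) and 83 (-0.24). The largest negative difference in share was at rank 3, of -0.158 points, where the log2 fold change of -0.31 did not pass (adjusted p = 0.249).

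The rise was spread over many genes, with a strong lead. Between PUFA_High and PUFA_Low the mean share was larger for 63 genes, by 5.84 points in sum, and smaller for 37, by -0.916 points in sum. The 44 genes called accounted for 5.29 points, and the other 56 for -0.370 points. ENSBTAG00000043561 gave 0.967 points, which is 16.6% of the positive sum. The 5 largest differences made up 33.9% of it and the 10 largest 46.4%, while 12 genes were needed to reach 50% and 31 to reach 80%. Had every member risen in proportion to its share in PUFA_High, 26 genes would have reached 50% and 63 would have reached 80%, and the leading gene would have given 11.3%. The observed counts leave out the genes that fell and are sorted by the differences themselves. Each of these favours smaller counts, so nothing is read from the gap to the proportional case. Against CON_Low the figures were similar, with 11 and 29 genes for 50% and 80% and 1.12 points (21.2% of the positive sum) from ENSBTAG00000043561; both comparisons use the same PUFA_Low heifers.

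**Figure D3:**
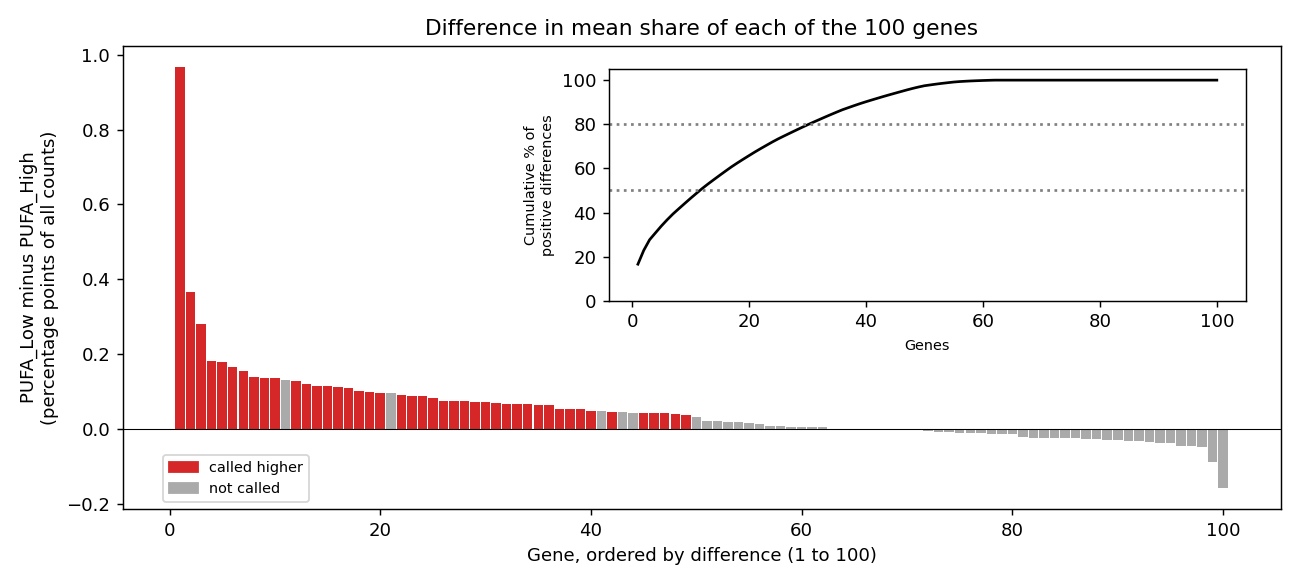
Difference in mean share between PUFA_Low and PUFA_High (percentage points of all counts) of each of the 100 genes, ordered by the difference, with genes called higher in red; the inset gives the cumulative percentage of the positive differences, with dotted lines at 50% and 80%. The first bar reaches 0.967 points, the curve passes 50% at 12 genes and 80% at 31, and 37 genes lie below 0.

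A set of 9 members share all but the last 2 digits of their identifiers, as do 78 rows of the table in all. This set was noticed after the values had been seen and was not tested. It comprises the genes of ranks 1, 2, 6, 15, 16, 30, 35, 52 and 70, holds 5.01% of all counts, and 8 of the 9 were called higher in PUFA_Low than in PUFA_High, all except rank 35. Its summed share was 6.61% ± 2.19 (SD, n = 15) in PUFA_Low, 4.39% ± 1.42 (n = 17) in PUFA_High, 4.40% ± 1.78 (n = 14) in CON_Low and 4.52% ± 2.46 (n = 14) in CON_High. It contributed 2.22 points, or 45.1% of the net difference between the n-3 PUFA planes. The remaining 36 genes called contributed 3.02 points. With the 9 genes taken out of the sum and of the library total, PUFA_Low stood 3.33 points above PUFA_High, and with ENSBTAG00000043561 alone taken out it stood 4.29 points above; both settings were chosen after seeing the data.

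Genes just below the list behaved less like it the further down they stood. The summed share was 23.6% larger in PUFA_Low than in PUFA_High, in relative terms, for ranks 1 to 100 and 6.34% larger for ranks 101 to 200. The relative difference was -0.579% for ranks 201 to 500, -5.72% for ranks 501 to 1000, -8.67% for ranks 1001 to 2000 and -10.2% for ranks 2001 to 5000. The percentage of genes called higher went from 44.0% in the first 100 to 19.0% for ranks 101 to 200, 10.3% for ranks 201 to 500 and 4.00% for ranks 501 to 1000. Since shares add up to a whole, the smaller shares below and the larger shares above are parts of 1 measurement. Measures of the libraries moved with the same group: PUFA_Low had 16560 ± 131 genes with a count (SD, n = 15) against 16670 ± 131 in PUFA_High (n = 17), and a TMM scale factor, which offsets such shifts in composition, of 0.941 ± 0.0763 against 1.03 ± 0.0516. Their part in the result was not tested. Depth ranged from 9635801 to 12358063 counts per heifer in PUFA_High, from 10450141 to 13943813 in PUFA_Low, from 9712703 to 13144584 in CON_Low and from 10032791 to 13306629 in CON_High. In whole tissue, fewer cells of a type and less RNA per cell cannot be told apart.

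**Figure D4:**
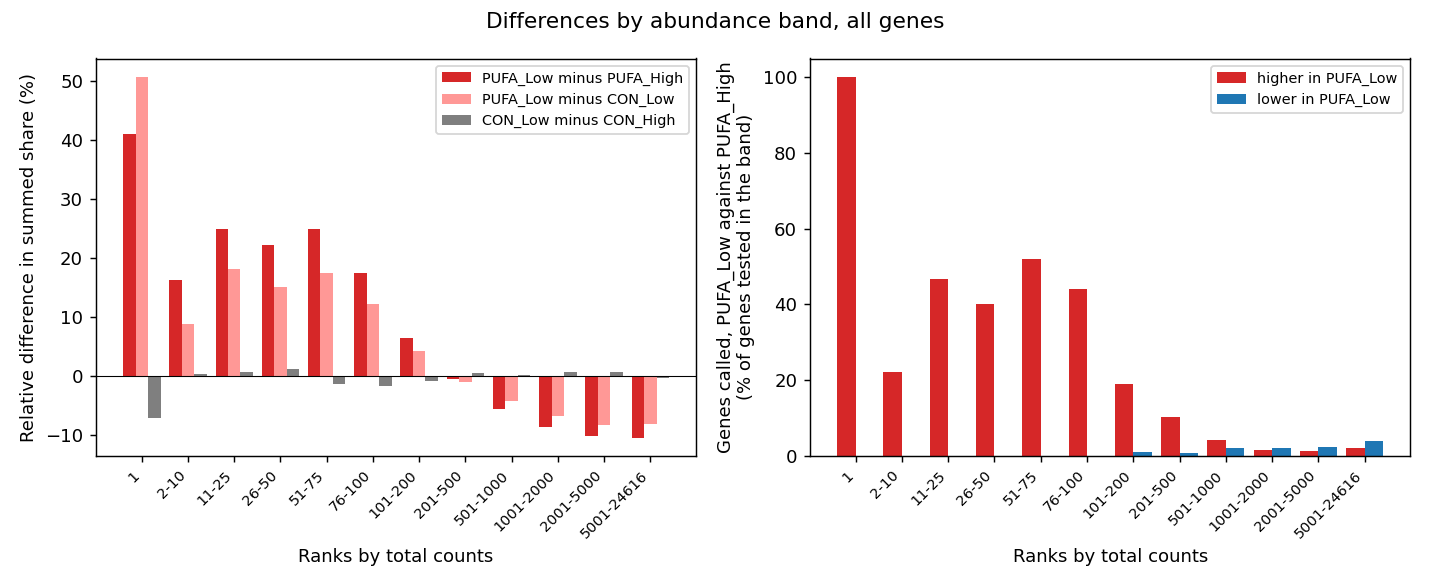
Left, relative difference (%) in the summed share of bands of genes ordered by total counts, for 3 comparisons; right, percentage of tested genes in each band called higher or lower in PUFA_Low than in PUFA_High. The relative difference is 41.0% at rank 1, between 16.3% and 24.9% in the other bands of the list and 6.34% at ranks 101 to 200, and it is negative from rank 201 on, while the differences between control heifers lie between -7.10% and 1.11%.

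The same genes were compared with the control heifers on the low plane. Between PUFA_Low and CON_Low, 35 of the 100 genes were called higher (1.52% of all genes) and 0 lower (1.04%). With scaling by total counts alone it was 20 higher (0.703% of all genes in that setting) and 1 lower (2.63%), and at an adjusted p under 0.001, the rate given in the methods, 10 higher (0.306%). At any fold change 46 were higher (9.78%) and 3 lower (7.74%). All 35 are among the 44 called between the n-3 PUFA planes, but both comparisons rest on the same 15 PUFA_Low heifers. The median log2 fold change of the 44 was 0.72 against CON_Low.

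Among the members the plane of nutrition had no detectable counterpart in control heifers. Between CON_Low and CON_High edgeR called 0 of the 100 genes and 0 of all 14363 genes that passed the filter (0.0%), at any fold change too. DESeq2 also called 0. Without the expression filter edgeR called 0 members and 3 of all 20669 genes, as higher (0.0145%). With the filter, 3 members and 705 genes in all (4.91%) had an unadjusted p under 0.05. Every member had a log2 fold change between -0.32 and 0.39, with a median of -0.06. The 44 genes called between the n-3 PUFA planes had a median of -0.11 in control heifers. Their summed share had a mean of 9.66% in CON_Low and 10.1% in CON_High, but a median of 9.46% and 8.85%. Nothing is therefore read from the sign of that value. Between PUFA_High and CON_High edgeR likewise called 0 members and 0 of all genes that passed the filter. Without the filter it called 0 members, while of all genes 30 were higher (0.145%) and 5 lower (0.0242%). DESeq2 called 0 members and 2 of all genes. With the filter, 13 members and 1513 genes (10.5%) had an unadjusted p under 0.05. There the 44 genes had log2 fold changes from -0.36 to -0.04, with a median of -0.24. They were chosen for being low in PUFA_High relative to PUFA_Low, which favours values below 0 in this comparison, so nothing is read from their sign.

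Whether the plane effect differed between supplements was tested with the interaction term, the log2 difference from PUFA_High to PUFA_Low minus that from CON_High to CON_Low. It was higher for 43 of the 100 genes, against 4.46% of all genes, and lower for 0, against 3.58%. At an adjusted p under 0.001, the rate given in the methods, it was higher for 0 members and for 0.0% of all genes. At any size 46 were higher (11.9%) and 2 lower (8.89%). The median of the term was 0.40 over the members and -0.02 over all genes. Of the 43, 42 are among the 44 called between the n-3 PUFA planes, with which the term shares its n-3 PUFA heifers. For ENSBTAG00000043561 the term was 0.80 (SE 0.29, edgeR adjusted p = 0.0589), and for ENSBTAG00000043560 it was 1.04 (SE 0.35, adjusted p = 0.0393). For ENSBTAG00000010347 it was -0.58 (SE 0.17, adjusted p = 0.0168).

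The choice of the 44 genes on the difference between PUFA_Low and PUFA_High favours both a highest mean in PUFA_Low and a lowest in PUFA_High, so the order of their group means is a description only. PUFA_Low had the highest mean share in all 44 and PUFA_High the lowest in 42, and in 33 of the 44 the order was PUFA_Low, CON_High, CON_Low, PUFA_High. The place of CON_High leans on 3 of its 14 heifers, replicates 8, 9 and 11, with 14.97% to 16.7% of counts on the 44 together. By median this summed share was 8.85% in CON_High, 9.46% in CON_Low and 8.79% in PUFA_High. Without the 3 heifers the CON_High median was 8.54%. The neighbours CON_High and CON_Low did not differ beyond their spread in any of them by the test above. Among the other 56 the highest mean was in CON_Low for 22, CON_High for 13, PUFA_High for 11 and PUFA_Low for 10, and the lowest was in PUFA_Low for 28.

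How the genes varied together from heifer to heifer was described by Pearson correlations of log2 CPM (counts scaled to a common library size), after the mean of each dietary group had been removed, so that differences between groups do not enter. All genes of a heifer share its library, depth and scale factor, and these correlations carry no p-value. Over the 60 heifers the 4950 pairs of members had a mean r of 0.23, and 68.8% were positive. On log2 shares of the library total the mean r was 0.124. The 44 genes called higher formed a block: every one of their 946 pairs was positive, with a mean r of 0.77 and a median of 0.86. For this block and its parts r was computed on log2 CPM only, not on log2 shares. Pairs among the other 56 had a mean r of 0.10, and pairs of a called with another member 0.11. The first principal component held 41.2% of the variance of the 100 genes and the second 17.8%.

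Within each dietary group taken alone, the mean r among the 44 was 0.81 in CON_High, 0.73 in CON_Low, 0.64 in PUFA_High and 0.83 in PUFA_Low. In PUFA_High 6.24% of the pairs were negative, in CON_Low 0.106%, and in the other groups none. In CON_High the summed share of the 44 ran from 6.02% to 16.7% (median 8.85%), and in PUFA_Low from 9.21% to 20.1% (median 14.8%). In CON_High 3 of 14 heifers, replicates 8, 9 and 11, stood apart at 14.97% to 16.7%, and the other 11 lay between 6.02% and 11.5%. Replicates 9 and 11 had the fewest genes with a count of all 60 heifers, 16269 and 16272, and TMM factors of 0.885 and 0.831, whose part in the result was not tested. Without these 3 heifers, a setting chosen after seeing the data, the mean r among the 44 in CON_High was 0.57, with 95.98% of pairs positive. The calls between the n-3 PUFA planes then numbered 44 higher (2.63% of all genes in that setting) and those of the interaction 31 higher (1.56%). The 3 heifers do not enter the difference between the n-3 PUFA planes. They can act on its calls only through the shared spread, filter and scaling, so little change was possible there. In CON_Low the summed share of the 44 ran from 6.42% to 13.1% (median 9.46%) and in PUFA_High from 7.03% to 12.1% (median 8.79%).

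There were 2 tighter sets. The 9 genes that share the leading digits of their identifiers, of which 8 belong to the block, had a mean r of 0.88 among themselves, and the other 36 genes called had 0.89, but the mean r between both sets was 0.47. That value was 0.60 in CON_High, 0.45 in CON_Low and 0.59 in PUFA_Low, and 0.15 in PUFA_High, where 29.3% of these pairs were negative. Each gene, as log2 CPM, was also set against the log2 summed share of the other 99 members, which carries no TMM factor. Within groups the summed share of the 44 had an SD of 1.61 to 3.68 points, against 0.834 to 1.05 for the other 56. The 44 therefore supply most of the variation in that sum, which favours a high r for them. These values are a description only. Over the 60 heifers the r was between 0.64 and 0.91 for the 44 genes called (median 0.82), led by the gene of rank 32 (0.91). For the other 56 it was between -0.49 and 0.78 (median 0.12), lowest for rank 45 (-0.49) and rank 100 (-0.45).

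**Figure D5:**
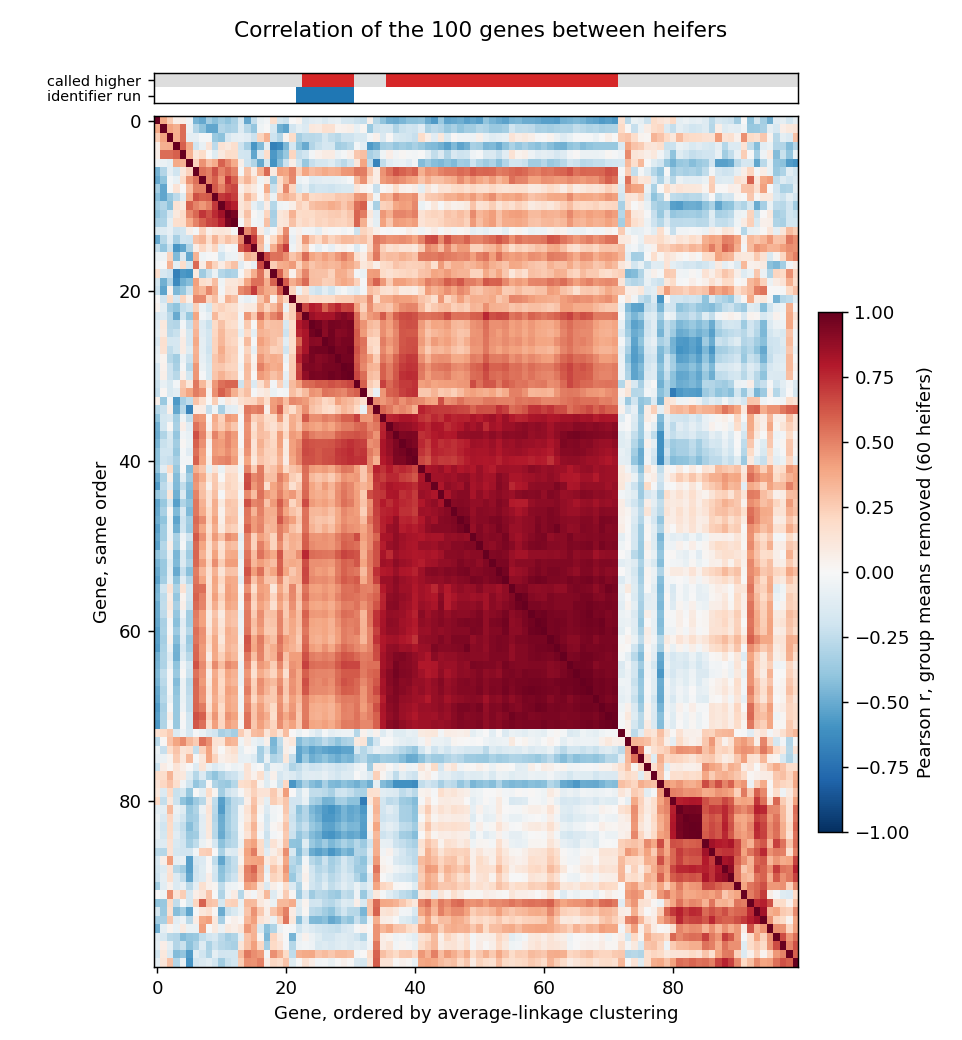
Pearson r between each pair of the 100 genes over 60 heifers, from log2 CPM with group means removed, in the order given by average-linkage clustering; the strips mark the 44 genes called higher in PUFA_Low than in PUFA_High (red) and the 9 genes that share the leading digits of their identifiers (blue). The called genes fall into a large red block of 36 and a smaller one of 8, with a mean r of 0.47 between the 9 genes of the run and the 36.

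A few abundant genes varied far more than the rest, within every dietary group. The within-group SD of log2 CPM was 2.80 for the gene of rank 87, 2.66 for rank 92, 2.00 for rank 43 and 1.79 for rank 48, against 1.01 for the next gene and a median of 0.39 over the members and 0.37 over all genes tested. The gene of rank 87 ran from 10.1 to 2450 CPM in CON_High (median 1245), from 11.4 to 2486 in CON_Low (median 1222), from 13.3 to 2656 in PUFA_High (median 993) and from 17.6 to 3679 in PUFA_Low (median 886). All 4 groups covered nearly the same range. The 4 genes rose and fell together, with r from 0.95 to 0.99 over their 6 pairs. Their r with the 44 genes called higher lay between -0.60 and 0.28, so heifers high in one set were not in general high in the other. By median r with these 4 genes the members most like them were those of ranks 58 (0.80), 54 (0.76) and 5 (0.74).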

How the data were processed

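RNA was sequenced as single-end reads from endometrium of 60 heifers. The authors aligned reads with TopHat2 2.0.9 to the UMD3.1 bovine genome, counted them on protein-coding genes with HTSeq 0.5.4p5 and deposited raw counts, with no normalization, for all heifers in 1 table (CASAVA 1.4 is also named in the submitters' processing notes). Strand and multi-mapping settings are not given in the sources used here. Of 24616 rows, 3947 held no count.

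The members, lists and tests were chosen with earlier results of these data known. From the counts, edgeR 4.0.16 (R 4.3.3) was used with filterByExpr (14363 genes), TMM scaling and a quasi-likelihood fit with 1 coefficient per group over all heifers. The 5 comparisons were PUFA_Low against PUFA_High and CON_Low, CON_Low and PUFA_High against CON_High, and the interaction; p-values were adjusted by Benjamini-Hochberg over all genes. Shares are raw counts as a percentage of the library total. log2 CPM used TMM sizes and a prior count of 0.5. The fit was tested on simulated data, but no result of that is given here and nothing is read from it. Of 423 within-group pairs of libraries the smallest chi-square per gene was 17.4, so none looked like a repeat.

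The rule for named genes asked for symbols, which could not be matched; 2 identifiers that rose and 2 that fell are printed, and other members go by rank. The lists of ribosomal, mitochondrial, cytoskeletal, secreted and cell type genes could not be applied, and the alternative without mitochondrially encoded genes was not run. Alternatives were other scaling, filters, DESeq2 1.42.0, thresholds, blocks, other choices of members and exchanged planes; leaving out each heifer, or 3 CON_High heifers together, was added after seeing the data.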

Additional observations from a re-analysis of the deposited data

Results flagged for a closer look

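The plane effect differed between supplements, by the interaction term of the edgeR quasi-likelihood fit, for a part of the members. It was called higher for 43 of the 100 genes, against 4.46% of all genes tested, and 2 passed an adjusted p under 0.10 as lower at any size, against 8.89%. At an adjusted p under 0.001, the rate given in the methods, it was called higher for 0 members and 0.0% of all genes. It was 0.80 on the log2 scale for ENSBTAG00000043561, 1.04 for ENSBTAG00000043560 and -0.58 for ENSBTAG00000010347.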

How the results depend on the processing

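The 44 genes called higher between the n-3 PUFA planes were all kept with DESeq2 size factors, with scale factors computed without the 100 genes, in DESeq2, without the expression filter, with a block for the library code prefix and in the compared groups alone. With total counts only, which moves the median of all genes to -0.16, 34 were kept, and the same setting gave 8 lower at any fold change, 20 higher and 1 lower against CON_Low (7 lower at any fold change), and for the interaction 2 lower (4 at any size); of all genes 1.39% were then higher and 6.75% lower between the n-3 PUFA planes. ENSBTAG00000043561 then stood at 0.50. The interaction had 1 lower member with scale factors computed without the members (3.77% of all genes) and 1 with the prefix as a block (2.92%). Without the expression filter 2 members were lower at any fold change between the n-3 PUFA planes (10.7%). At an adjusted p under 0.001, 10 genes were higher against CON_Low and 0 for the interaction. Without CON_High replicates 8, 9 and 11 the interaction had 1 lower member at any size and a share difference of 3.71 points.

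Same-numbered heifers did not deviate together (mean r -0.05 over 85 pairs; 2 of 58 heifers correlated best with their own number). With the replicate block 43 genes were called higher between the n-3 PUFA planes and 2 lower at any fold change, and the interaction had 1 lower gene, 1 at any size.

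With the labels PUFA_Low and PUFA_High exchanged, the directions between them and of the interaction turned, by construction, and the calls against CON_Low were lost. PUFA_Low had 0 members higher and 44 lower than PUFA_High (4 and 52 at any fold change), and 0 higher than CON_Low (0 and 0 at any fold change), where 0.0278% of all genes were higher. PUFA_High had 21 members higher than CON_High, against 0.759% of all genes (43 in either direction at any fold change, against 2.81% higher and 2.95% lower), and the interaction was higher for 0, against 1.09%, and lower for 26, against 1.08% (0 and 31 at any size, against 2.50% and 2.36%). The log2 fold changes became -0.64 for ENSBTAG00000043561, -0.96 for ENSBTAG00000043560, 0.38 for ENSBTAG00000033221 and 0.41 for ENSBTAG00000010347. The differences in summed share became -4.92 points between the n-3 PUFA planes, -0.969 against CON_Low, 3.77 between PUFA_High and CON_High and -4.74 for the interaction.

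Within single prefixes, which hold 2 or 3 heifers a group, CON_Low minus CON_High was 2.77 points in 1 prefix and -2.82 and -3.19 in 2 others, the interaction 1.80 and 1.70, PUFA_Low minus PUFA_High 7.76 and PUFA_High minus CON_High -3.96. Among the 50 most abundant genes 6 made up 50% of the positive differences. The first component held 35.2% with 200 genes, 37.9% with members chosen on control heifers (5 lower against CON_Low at any fold change) and 37.1% on log2 shares, and the mean r was 0.159 with 200 genes and 0.124 on log2 shares. The cause was not tested.

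Leaving out each heifer in turn gave 39 to 45 genes called higher and 0 lower between the n-3 PUFA planes (52 to 55 and 2 to 5 at any fold change, with 2 lower without PUFA_Low replicates 1, 6, 7, 10 or 12), 24 to 42 higher and 0 lower against CON_Low (45 to 49 and 2 to 4), and 38 to 44 higher and 0 to 1 lower for the interaction (40 to 48 and 2 to 3), with 1 lower in 25 of 60 fits. The lowest count against CON_Low was without PUFA_Low replicate 10. The other comparisons stayed at 0. ENSBTAG00000043561 ranged from 0.58 to 0.71, ENSBTAG00000043560 from 0.87 to 1.02, ENSBTAG00000033221 from -0.46 to -0.34 and ENSBTAG00000010347 from -0.49 to -0.36. Differences in summed share ranged from 4.57 to 5.23 points between the n-3 PUFA planes, 3.61 to 4.27 against CON_Low, -0.494 to 0.301 between the control planes (above 0 without CON_High replicate 11), -1.40 to -0.667 between PUFA_High and CON_High (nearest 0 without CON_High replicate 11) and 4.62 to 5.41 for the interaction. Between 11 and 13 genes reached 50%, the first component held 40.3% to 41.8% and the mean r was 0.221 to 0.240.

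Reads were counted without molecular identifiers, and all errors are the spread between heifers. Gene names, lengths and pregnancy status were not used, and the alternative without mitochondrially encoded genes was not run.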
